A study of Mus musculus with 23 samples.

Results

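Atp1b1, Atp1b3, Fxyd2, Fxyd4 and Fxyd5 encode 2 beta subunits of the sodium pump and 3 of its FXYD regulators. They are 5 of the 54393 genes in the count and abundance tables of this series and were found by matching the Ensembl gene identifiers to their symbols. The libraries came from connecting tubules and cortical collecting ducts dissected from mouse kidney. All mice carried Pax8-rtTA, TRE-LC-1 and MRflox/flox, in which doxycycline switches on a Cre recombinase that deletes the floxed Nr3c2 gene, the mineralocorticoid receptor. Knockout mice drank doxycycline at 2 mg/ml in 5% sucrose for 2 weeks and had a washout of 2 weeks on a rescue diet, while sucrose water alone (5%, no doxycycline) went to mice of this genotype kept as controls. They were then kept for 4 days on their potassium diet. This gave control mice on a normal potassium diet (CT-NK, 5 libraries), control mice on a high potassium diet (CT-HK, 6 libraries), knockout mice on a normal potassium diet (KO-NK, 6 libraries) and knockout mice on a low potassium diet (KO-LK, 6 libraries).

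The deletion and the doxycycline cannot be told apart in this design, because no undeleted mouse received the drug, and the labels do not say whether control mice ate the rescue diet. The Pax8 driver acts along the whole tubule, so the deletion is not limited to the dissected segment. High potassium was given to control mice only and low potassium to knockout mice only, so a mean over both knockout groups set against a mean over both control groups averages unlike diets. The labels number the libraries within a group without saying that each is a separate animal, and p-values then measure the spread between these libraries, which may be technical.

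The sodium pump exchanges cytoplasmic sodium for extracellular potassium at the basolateral membrane, and in the principal cells of this segment it drives sodium uptake through the epithelial sodium channel and potassium secretion. The pump is built from a catalytic alpha subunit, a glycosylated beta subunit that the alpha subunit needs to fold and reach the membrane, and a small FXYD protein that sets its affinity for its ions. Aldosterone acting on the mineralocorticoid receptor is known for raising sodium transport in this segment, and Fxyd4 was named corticosteroid hormone-induced factor for its response to these steroids.

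The FXYD proteins take their name from a short motif next to their membrane span, and the coding stretch around it is shown for the 3 regulators because it is the feature that places genes of such different level in 1 family. The letters come from the GRCm38 genome and the GENCODE vM21 transcript with the longest coding sequence, and capitals mark the codons of the motif. In each gene an intron interrupts the motif codons, so the genomic span is longer than the 66 bases printed. The span is chr9:45408117-45408337 on the plus strand for Fxyd2, chr6:117934463-117935158 on the minus strand for Fxyd4 and chr7:31035246-31035413 on the minus strand for Fxyd5.
Fxyd2: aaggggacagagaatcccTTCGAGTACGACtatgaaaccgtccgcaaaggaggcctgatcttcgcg
Fxyd4: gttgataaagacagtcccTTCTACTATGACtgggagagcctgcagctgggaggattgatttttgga
Fxyd5: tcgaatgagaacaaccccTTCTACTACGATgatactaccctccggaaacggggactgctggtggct

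The motif begins at residue 17 of 64 in Fxyd2, residue 30 of 99 in Fxyd4 and residue 136 of 185 in Fxyd5, so Fxyd5 carries a much longer part before it. Identity over the aligned residues was 35.2% between Fxyd2 and Fxyd4, 39.7% between Fxyd2 and Fxyd5 and 31.0% between Fxyd4 and Fxyd5. The 2 beta subunits were 304 residues (Atp1b1) and 278 residues (Atp1b3) long and identical at 38.7% of aligned residues. Atp1b1 held 3 and Atp1b3 held 2 sites of the form that accepts N-linked sugar.

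In GRCm38 the Atp1b1 gene lies at chr1:164437109-164458355, Atp1b3 at chr9:96332655-96364442, Fxyd2 at chr9:45399669-45410278, Fxyd4 at chr6:117933559-117937692 and Fxyd5 at chr7:31032722-31042481. Fxyd2 is on the plus strand and the other 4 are on the minus strand. Atp1b1 overlaps Nme7 on the opposite strand, and the strand setting of the quantification is not given in the sources used here, so reads of the overlap cannot be assigned to 1 of them with certainty. Fxyd4 and Fxyd5 each contain an annotated microRNA gene, Gm25535 and Mir7050, on their own strand.

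The mineralocorticoid receptor is a transcription factor, so RefSeq promoters (GRCm38.p6, 250 bases before to 50 bases after the start) were searched for the short hormone response sites AGAACA and TGTTCT, which are each other's reverse complement. The table matched 4 of the 5 genes, Atp1b1, Atp1b3, Fxyd4 and Fxyd5, and it held no entry for Fxyd2. None of the matched promoters held such a site, against 19% of all 32851 promoters, and the pair separated by 3 bases occurred in 0.00913% of all promoters. No match says only that these letters are not in this window. The 250 bases before the Fxyd4 start, chr6:117937336-117937585 on the minus strand, are shown because Fxyd4 is the gene with the widest range between groups below, and they hold no capitals because no such site was found. This start lies 357 bases inside the gene's extent in GENCODE.
Fxyd4 promoter: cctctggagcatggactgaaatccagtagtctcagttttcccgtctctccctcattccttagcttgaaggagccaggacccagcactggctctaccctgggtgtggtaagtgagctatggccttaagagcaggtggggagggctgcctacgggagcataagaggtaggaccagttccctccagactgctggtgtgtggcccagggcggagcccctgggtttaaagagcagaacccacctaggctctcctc

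The G and C content of the 300 bases was 71.0% for Atp1b1, 58.7% for Fxyd4 and 57.3% for Fxyd5, against a median of 52.7% over all promoters. Atp1b3 had 76.0% at the start 11 bases inside its 5' end and 74.7% at the start 727 bases inside. The beta subunit promoters were thus above the interquartile range of all promoters (45.7% to 61.7%), and the 2 FXYD promoters lay within it.

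Estimated counts summed to between 16158408 and 34154475 per library. Nr3c2 stood at 108 ± 33.2 (SD, n = 5) CPM (read counts relative to library size, scaled by edgeR's trimmed mean of M-values, TMM) in CT-NK, and CT-HK had the same mean, 108 ± 25.8 (n = 6). KO-NK had 58.8 ± 10.4 (n = 6) and KO-LK 54.3 ± 15.6 (n = 6). It fell by 0.94 on the log2 scale (SE 0.15, adjusted p 0.000155) in knockout against control libraries, while in TPM (transcript counts per length, scaled to 1 common total) its group means ran only from 34.1 to 40.9. The defining markers of the labelled segment, Aqp2, Calb1 and S100g, were present in every library, with lowest values of 719, 596 and 540 CPM. Proximal tubule markers (12 genes, none at 0 in any library) summed to 16645 CPM in CT-NK replicate 5 and 29239 in CT-HK replicate 6, against 7433 or less in the other libraries. In knockout against control all 12 had a negative change and 2 were called lower. Their median log2 change was -1.97, against 0.09 over all genes. In the same comparison 10.5% of all tested genes were called in either direction. An immediate early and dissociation stress list had 17 of its 19 tested genes called higher in the knockout. Its sums ran from 1727 to 8779 CPM in control and from 10841 to 24637 CPM in knockout libraries. Connecting tubule marker sums averaged 32080 CPM in CT-NK and 50150 CPM for CT-HK, against 11780 CPM for KO-NK and 13470 CPM for KO-LK. Klk1 reached the highest count of these markers, 1166150 in 1 library, against at most 281319 for S100g. In knockout against control 3 of 6 markers were called lower and none higher, while 2 had a positive change. Trpv5 was called higher by edgeR in KO-LK against CT-NK (1.28, adjusted p 0.028). Mitochondrial transcripts took 10.8% to 21.4% of counts in control and 7.93% to 13.4% in knockout libraries. The part of these differences in any result below was not tested, and in whole tubules fewer cells of a type and less RNA per cell cannot be told apart.

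On the length-scaled TPM level, Fxyd2 was the most abundant of the 5 transcripts, with 4587 ± 933 TPM (SD, n = 23). Fxyd2 is the gamma subunit of the pump, known to lower its affinity for sodium. Fxyd4 followed with 614 ± 330.0 TPM and Atp1b1 with 499 ± 75.8 TPM. Atp1b3 stood at 79.2 ± 22.0 TPM and Fxyd5, also called dysadherin, at 17.8 ± 7.68 TPM.

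Fxyd2 exceeded Fxyd4, Atp1b1 exceeded Atp1b3 and Atp1b3 exceeded Fxyd5 in each of the 23 libraries. Fxyd4 and Atp1b1 were the only neighbours in this order whose place differed between libraries. Fxyd4 was above Atp1b1 in 14 of 23 libraries, which were 6 of 6 of KO-NK, 6 of 6 of KO-LK, 2 of 5 of CT-NK and 0 of 6 of CT-HK. Among the 3 regulators, Fxyd2 made up 94.9% ± 1.36 of the summed TPM in CT-HK and 82.9% ± 5.83 in KO-LK (SD, n = 6 each).

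**Figure D1:**
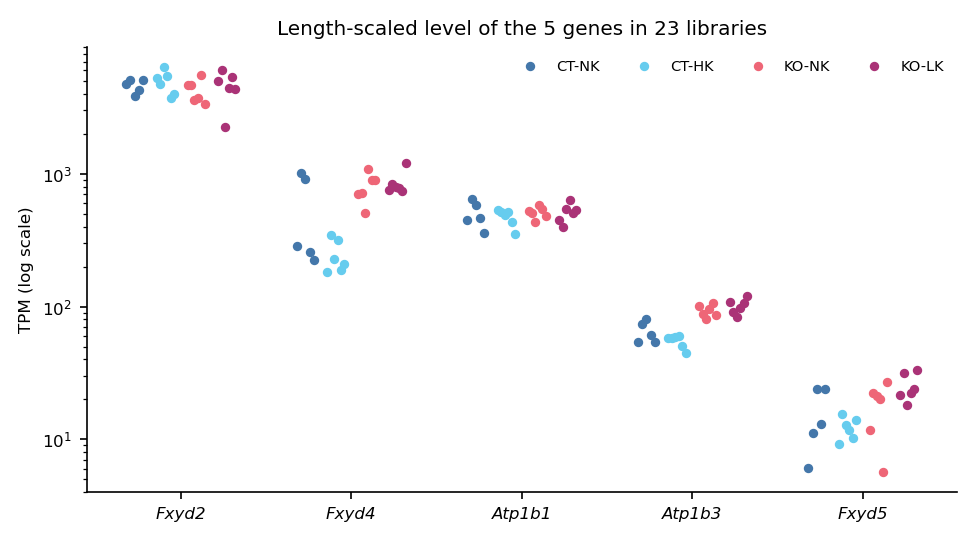
TPM on a log axis for the 5 genes, 1 point per library, coloured by group. Fxyd2 lies highest at 4587 TPM on average and Fxyd5 lowest at 17.8, and the Fxyd4 points of KO-NK and KO-LK lie above those of CT-HK.

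Fxyd4, which is known to raise the pump's affinity for sodium and in the kidney is a collecting duct protein, had higher counts in both knockout groups than in control mice on high potassium. In CT-HK it stood at 101 CPM in the lowest library, 123 in the median and 213 in the highest. In KO-NK the lowest, median and highest values were 158, 328 and 407 CPM. In KO-LK they were 252, 311 and 365 CPM. All 6 KO-LK libraries lay above all 6 CT-HK libraries, a separation that 3.99% of tested genes showed in either direction, and 5 of 6 KO-NK libraries lay above the highest CT-HK library.

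Fxyd4 rose in KO-NK against CT-HK by 1.17 on the log2 scale (SE 0.29, 2.26-fold, adjusted p 0.0154), where 5.78% of the 25829 tested genes were called in either direction. It rose in KO-LK against CT-HK by 1.19 (SE 0.29, 2.29-fold, adjusted p 0.0138), where 5.49% of tested genes were called. It was the 1 gene of the 5 called in each of these comparisons. The comparisons share the CT-HK libraries, and in both of them diet differs as well as genotype. Both calls held in 26 of 26 alternative settings each, with log2 changes from 1.10 to 1.72 and from 1.12 to 1.82.

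Control mice on normal potassium did not form 1 level of Fxyd4. CT-NK replicates 2 and 3 had 375 and 431 CPM, above each of the 6 KO-LK libraries. CT-NK replicates 1, 4 and 5 had 171, 108 and 121 CPM, inside the range of CT-HK. The same replicates differed in proximal tubule markers, whose sums were 654 and 494 CPM in replicates 2 and 3 and 6464, 7433 and 16645 CPM in replicates 1, 4 and 5. In CT-HK, replicates 1 to 5 had sums from 252 to 774 CPM with Fxyd4 from 101 to 213 CPM. CT-HK replicate 6 had a sum of 29239 CPM with Fxyd4 at 126 CPM. The part of proximal tubule RNA in the CT-NK split was not tested.

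Against CT-NK, Fxyd4 was not called on counts in either knockout group. The log2 change was 0.33 (SE 0.30, 95% interval from -0.31 to 0.96, adjusted p 0.811) in KO-NK, where 1.7% of tested genes were called and none of the 5. It was 0.35 (SE 0.30, interval from -0.29 to 0.98, adjusted p 0.823) in KO-LK, where 2.04% of tested genes were called and again none of the 5. On log2(TPM + 1) the Fxyd4 change against CT-NK was 0.85 (adjusted p 0.1) in KO-NK and 0.96 (adjusted p 0.0474, called) in KO-LK. In KO-LK against CT-NK on that scale 4361 of 25829 tested genes were called, 95.6% of them higher. The intervals on counts include no change and a nearly doubled level alike.

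**Figure D2:**
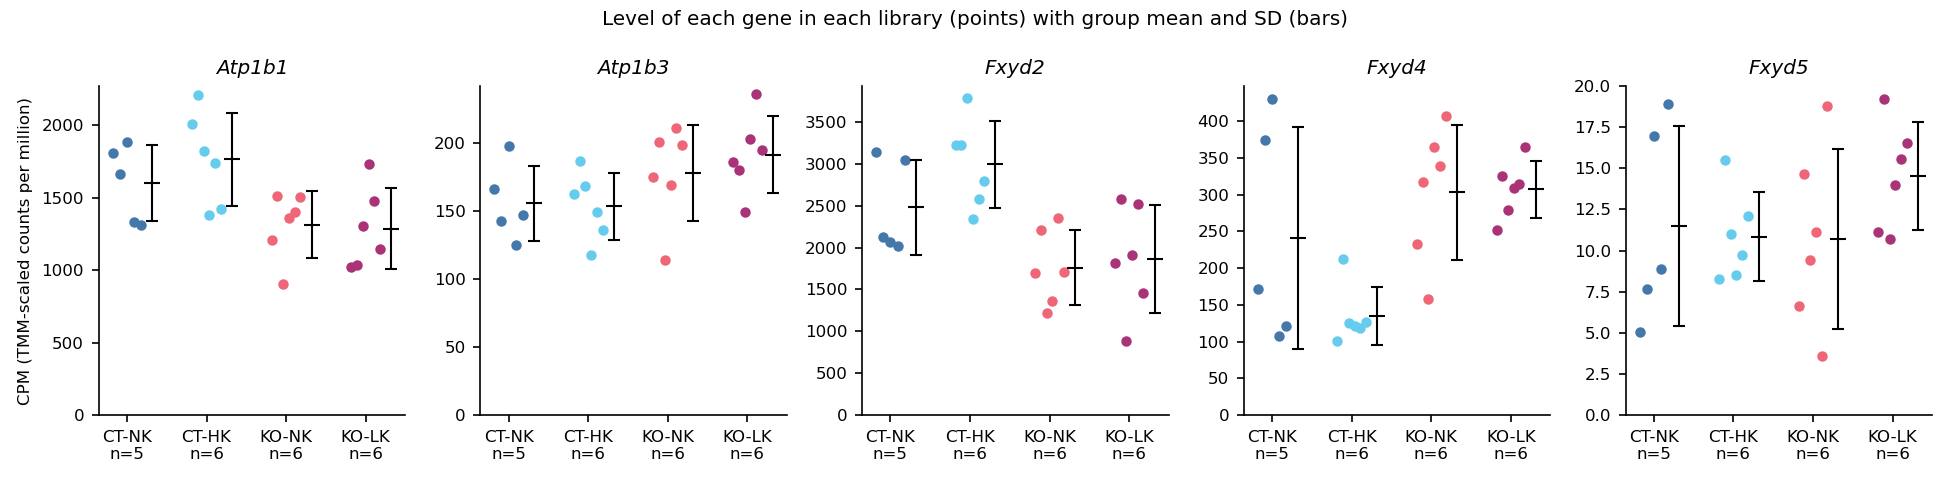
TMM-scaled CPM of each gene, 1 point per library, with the group mean and SD as a bar beside the points and the number of libraries under each group. Fxyd4 in CT-HK lies between 101 and 213 CPM, below all KO-LK libraries, and the 5 CT-NK libraries are spread from 108 to 431 CPM.

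High against normal potassium in control mice gave a Fxyd4 log2 change of -0.85 (SE 0.30, interval from -1.48 to -0.21) with an adjusted p of 1 in edgeR's quasi-likelihood test. In this comparison 0% of tested genes were called by edgeR, against 927 genes with an unadjusted p under 0.05, of which Fxyd4 was 1 (unadjusted p 0.0099), and 17 genes called by DESeq2. Without CT-NK replicate 3 the Fxyd4 value was -0.53, so 1 library moved it by more than 1.5 times. KO-NK and KO-LK had Fxyd4 means of 303 and 307 CPM and a log2 difference of -0.02 (interval from -0.62 to 0.58). In that comparison edgeR again called 0% of tested genes, with 732 at an unadjusted p under 0.05 and 23 called by DESeq2.

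Over all 12 knockout against all 11 control libraries, Fxyd4 rose by 0.76 (SE 0.21, 1.70-fold, adjusted p 0.0197), where 10.5% of tested genes were called and 2 of the 5 genes were. No knockout library lay above the highest control library. Without CT-HK replicate 6 and CT-NK replicate 5, the libraries richest in proximal tubule markers, the value was 0.67 with an adjusted p of 0.0645, and with no count filter it was 0.73 with an adjusted p of 0.0524.

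Of 9 principal cell markers 1, Scnn1g, was called higher in the knockout, where 10.5% of all tested genes were called in either direction. The summed markers had means of 8627 CPM in CT-NK, 9721 CPM for CT-HK, 9070 CPM for KO-NK and 8577 CPM for KO-LK. Fxyd4 counts equalled 1.39% ± 0.330 of that sum in CT-HK (SD, n = 6), 2.68% ± 1.18 in CT-NK (n = 5), 3.45% ± 0.996 in KO-NK (n = 6) and 3.6% ± 0.449 in KO-LK (n = 6). The highest CT-HK library was at 1.85% and the lowest knockout library at 2.48%, so these groups did not overlap on this scale, which was chosen after the values were seen. Of all 25829 tested genes, 1.89% separated CT-HK from the 12 knockout libraries on it, in either direction. CT-NK ran from 1.53% to 4.35% and overlapped both.

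Fxyd2 moved in the other direction from Fxyd4. Its lowest, median and highest values were 2343, 3011 and 3785 CPM in CT-HK, 1222, 1699 and 2359 CPM in KO-NK and 885, 1862 and 2582 CPM in KO-LK. The 5 CT-NK libraries had 3139, 2132, 2061, 2015 and 3049 CPM. Of the 12 knockout libraries, 8 lay below the lowest control library and none above the highest.

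Fxyd2 fell by 0.59 on the log2 scale (SE 0.17, 1.5-fold lower, adjusted p 0.0227) in knockout against control libraries. The call was lost in 8 of 36 alternative settings, among them leaving out CT-NK replicate 1 (-0.54, adjusted p 0.0541) or CT-NK replicate 5 (-0.55, adjusted p 0.0592). With an offset for transcript length in the edgeR fit on counts, the Fxyd2 change was -0.52 and was called (adjusted p 0.0463). On TPM the Fxyd2 change was -0.14 (adjusted p 0.514). The size of the change thus moved by more than 1.5 times between counts and TPM, and the sign did not change.

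By single groups Fxyd2 missed the threshold. The log2 change was -0.77 (SE 0.23, adjusted p 0.0511) in KO-NK against CT-HK, where 10 of 26 alternatives made the call, and -0.69 (SE 0.23, adjusted p 0.0921) in KO-LK against CT-HK. Against CT-NK it was -0.49 (adjusted p 0.432) in KO-NK and -0.41 (adjusted p 0.545) in KO-LK. CT-HK against CT-NK gave 0.27 (adjusted p 1) and KO-NK against KO-LK gave -0.08 (adjusted p 0.949). Fxyd2 is also a gene of the proximal tubule and thick ascending limb, and with covariates for both the knockout value was -0.59 with an adjusted p of 0.0634.

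Within a library the Fxyd2 TPM was 21.1 ± 6.12 times the Fxyd4 TPM in CT-HK (SD, n = 6), 13 ± 8.07 times in CT-NK (n = 5), 5.58 ± 1.57 times in KO-NK (n = 6) and 5.50 ± 1.87 times in KO-LK (n = 6). The highest knockout library had a ratio of 7.20 and the lowest CT-HK library 13.6. Of 9709 genes with at least 10 CPM, 17.8% separated these libraries without overlap in their ratio to Fxyd2, in either direction, so the separation was not particular to Fxyd4. CT-NK replicates 2 and 3, with ratios of 4.96 and 4.24, lay within the knockout range. This ratio is free of the scaling between libraries, and no test was made on it.

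Atp1b1, the main beta subunit here, had 1313 to 1880 CPM in CT-NK and 1379 to 2204 CPM in CT-HK, against 900.5 to 1513 CPM in KO-NK and 1021 to 1731 CPM in KO-LK. Of the 12 knockout libraries, 6 lay below the lowest control library and none above the highest. The log2 change in knockout against control was -0.37 (SE 0.13, interval from -0.64 to -0.10) and was not called (adjusted p 0.0653). DESeq2 called it (-0.40, adjusted p 0.00522), and on TPM the sign turned (0.08, adjusted p 0.548). With an offset for transcript length in the edgeR fit on counts, the change was -0.33 and was not called (adjusted p 0.0973).

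Against CT-HK the Atp1b1 log2 change was -0.42 (adjusted p 0.188) in KO-NK and -0.46 (adjusted p 0.156) in KO-LK. Against CT-NK it was -0.28 (adjusted p 0.652) and -0.32 (adjusted p 0.54). The 2 diet comparisons within a genotype gave 0.14 (interval from -0.24 to 0.53) for CT-HK against CT-NK and 0.03 (interval from -0.33 to 0.40) for KO-NK against KO-LK.

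Atp1b3, a second beta isoform that occurs in many tissues, had 125 to 197 CPM in CT-NK, 118 to 187 CPM in CT-HK, 114 to 211 CPM in KO-NK and 149 to 236 CPM in KO-LK. The groups overlapped in each comparison, and 5 of 12 knockout libraries lay above the highest control library. The log2 change in knockout against control was 0.26 (SE 0.11, interval from 0.02 to 0.49) and was not called (adjusted p 0.167). Without KO-NK replicate 3, the library with the lowest Atp1b3 value, it was 0.36 and was called (adjusted p 0.00115). That library also had the fewest estimated counts (16158408), the highest TMM factor (1.345) and the lowest Atp1b1 value (900.5 CPM). Without it 3742 genes were called over all tested genes, against 2721 with it. On log2(TPM + 1) 8161 of 25829 tested genes were called, 95.9% of them higher. The Atp1b3 change was called there at 0.69 (adjusted p 1.53e-06). Its group means were 64.9 TPM in CT-NK, 55.2 TPM for CT-HK, 93.4 TPM for KO-NK and 101 TPM for KO-LK.

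Between single groups Atp1b3 missed the threshold. Against CT-HK the log2 change was 0.21 (adjusted p 0.545) in KO-NK and 0.32 (adjusted p 0.308) in KO-LK, and 4 of 26 alternatives made the call in each. Without KO-NK replicate 3 it was 0.40 (adjusted p 0.0142) in KO-NK. Against CT-NK it was 0.19 (adjusted p 0.781) and 0.30 (adjusted p 0.479). The diet comparisons gave -0.02 for CT-HK against CT-NK and -0.10 for KO-NK against KO-LK.

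The ratio of the 2 beta subunits separated the genotypes. Atp1b1 TPM was 7.69 ± 0.842 times Atp1b3 TPM in CT-NK (SD, n = 5), 8.55 ± 0.496 times in CT-HK (n = 6), 5.49 ± 0.373 times in KO-NK (n = 6) and 5.12 ± 1.09 times in KO-LK (n = 6). The highest of the 12 knockout libraries had a ratio of 6.57 and the lowest of the 11 control libraries 6.65, so the genotypes did not overlap, by a narrow margin. Within KO-LK the libraries ran from 4.12 to 6.57.

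Of 9709 genes with at least 10 CPM, 6.24% separated the genotypes without overlap in their ratio to Atp1b1, in either direction, so the separation was not confined to Atp1b3. The mean log2 ratio was lower by 0.62 in knockout libraries on TPM (-0.62) and by much the same on CPM (-0.63), against a standard deviation of 0.18 within groups. Leaving out any 1 library kept it between -0.66 and -0.59. No test was made on the ratio.

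**Figure D3:**
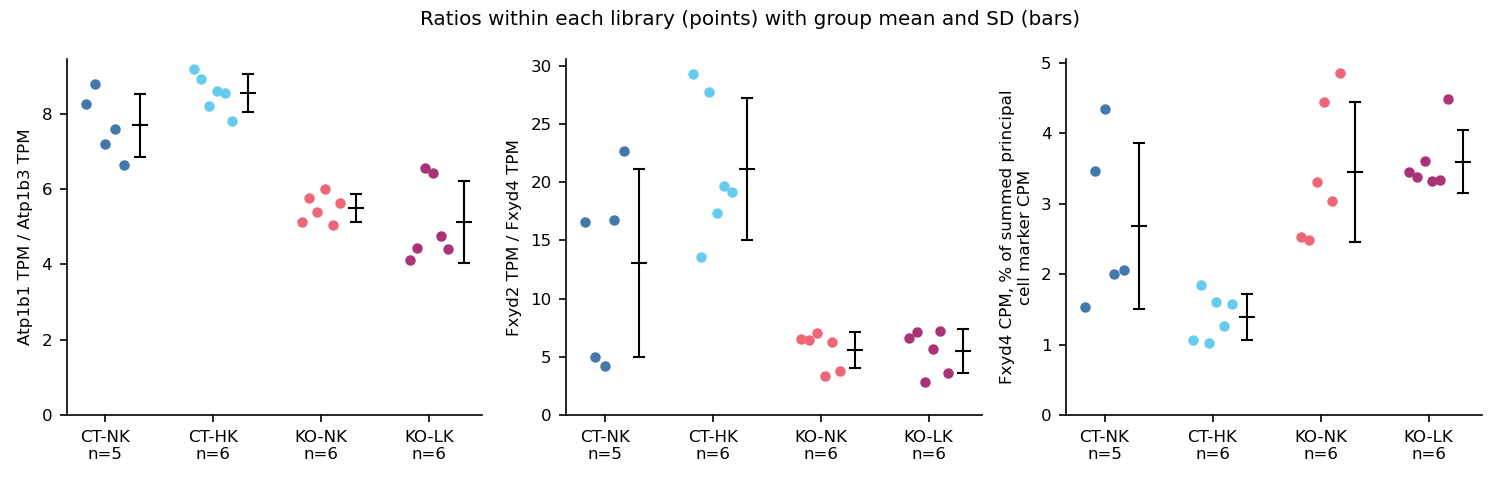
Ratios within each library by group, with the group mean and SD beside the points: Atp1b1 TPM over Atp1b3 TPM, Fxyd2 TPM over Fxyd4 TPM, and Fxyd4 CPM as a percent of summed principal cell marker CPM. In the left panel all knockout libraries lie at or below 6.57 and all control libraries at or above 6.65, and in the other panels CT-NK overlaps the knockout groups.

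Fxyd5, known to change cell adhesion as well as pump activity, was the least abundant of the 5 and varied most between libraries of 1 group after Fxyd4 in CT-NK. The CT-NK libraries had 5.06, 7.65, 17, 8.86 and 18.9 CPM. The lowest, median and highest values were 8.26, 10.3 and 15.5 CPM in CT-HK, 3.61, 10.3 and 18.8 CPM in KO-NK and 10.7, 14.8 and 19.2 CPM in KO-LK. The groups overlapped in each comparison.

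On counts Fxyd5 was called in none of the 7 comparisons. The log2 change was 0.16 (SE 0.24, interval from -0.33 to 0.66, adjusted p 0.863) in knockout against control, -0.02 (interval from -0.70 to 0.66) in KO-NK against CT-HK and 0.42 (interval from -0.26 to 1.10) in KO-LK against CT-HK. It was -0.10 in KO-NK and 0.34 in KO-LK against CT-NK. The diet comparisons gave -0.08 for CT-HK against CT-NK and -0.44 (interval from -1.12 to 0.24) for KO-NK against KO-LK. On log2(TPM + 1) the knockout change was 0.59 and was called (adjusted p 0.0478), as was KO-LK against CT-HK at 0.97 (adjusted p 0.0207). On that scale 8161 of 25829 tested genes were called in knockout against control, 95.9% of them higher. In KO-LK against CT-HK 6852 were called, 96.8% of them higher.

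Leukocyte marker sums had the same order of group means as Fxyd5. None of the 8 markers was called in knockout against control, the sums averaged 135 CPM in CT-NK, 111 CPM for CT-HK, 106 CPM for KO-NK and 164 CPM for KO-LK, and Cd79a was at 0 in 2 libraries. The library with the lowest Fxyd5 value, KO-NK replicate 5 with 3.61 CPM, also had the lowest leukocyte sum, 59.0 CPM. Their part in the Fxyd5 values was not tested.

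**Figure D4:**
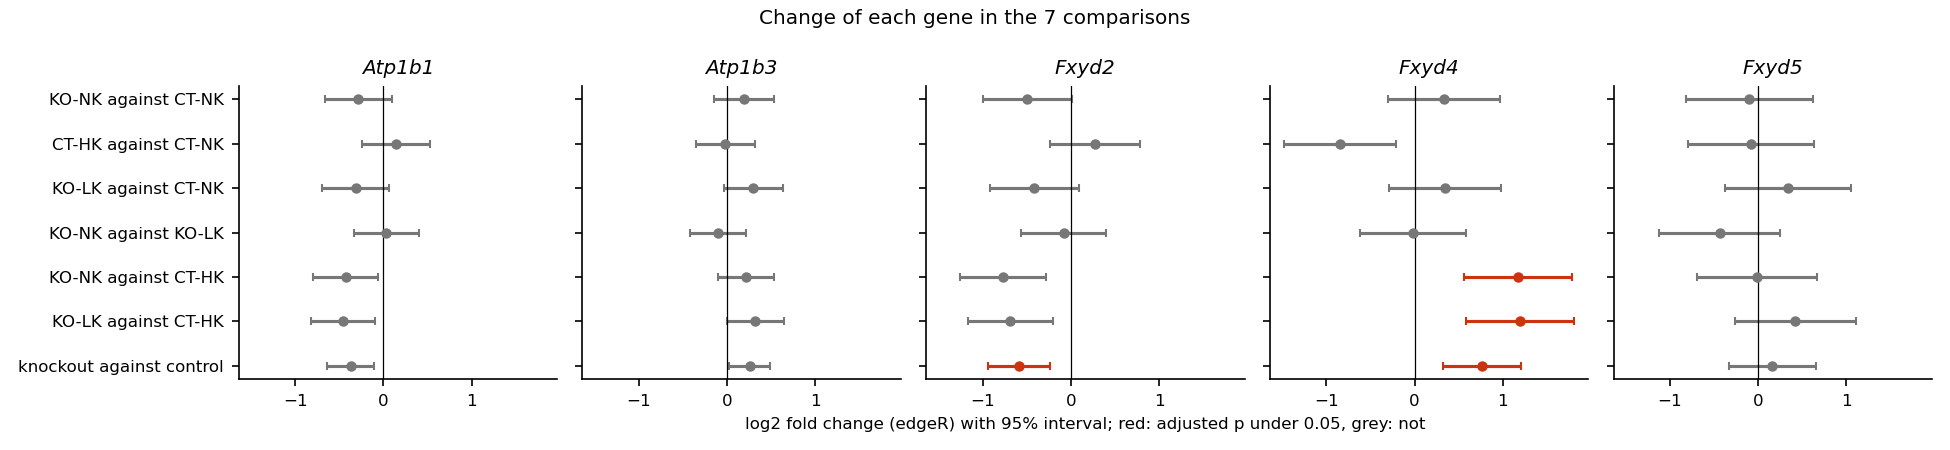
Log2 fold change of each gene in the 7 comparisons with its 95% interval from edgeR's quasi-likelihood fit, red where the adjusted p was under 0.05 and grey where it was not. Fxyd4 is called against CT-HK in both knockout groups (1.17 and 1.19) and in knockout against control (0.76), and Fxyd2 in knockout against control (-0.59).

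The scale of the values bears on the 5 genes unequally. The TMM factors ran from 0.802 to 1.18 in control and from 0.934 to 1.34 in knockout libraries. On log2(TPM + 1), fitted without them, the median change of all tested genes was 0.22, against 0.09 on counts. On log2(TPM + 0.1) it was 0.42, so the median also depends on the constant added. Of the 8161 genes called on log2(TPM + 1), 95.9% were higher in the knockout, against 44.4% of the 2721 called on counts. Set against the median of all genes, the change was -0.46 on counts and -0.13 on log2(TPM + 1) for Atp1b1. For Fxyd2 it was -0.68 and -0.35, for Fxyd4 0.67 and 1.12, for Atp1b3 0.17 and 0.48 and for Fxyd5 0.07 and 0.37. On log2(TPM + 0.1) it was -0.33 for Atp1b1, -0.55 for Fxyd2, 0.92 for Fxyd4, 0.29 for Atp1b3 and 0.20 for Fxyd5. Relative to the median, each of the 5 genes thus kept its sign on both scales.

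**Figure D5:**
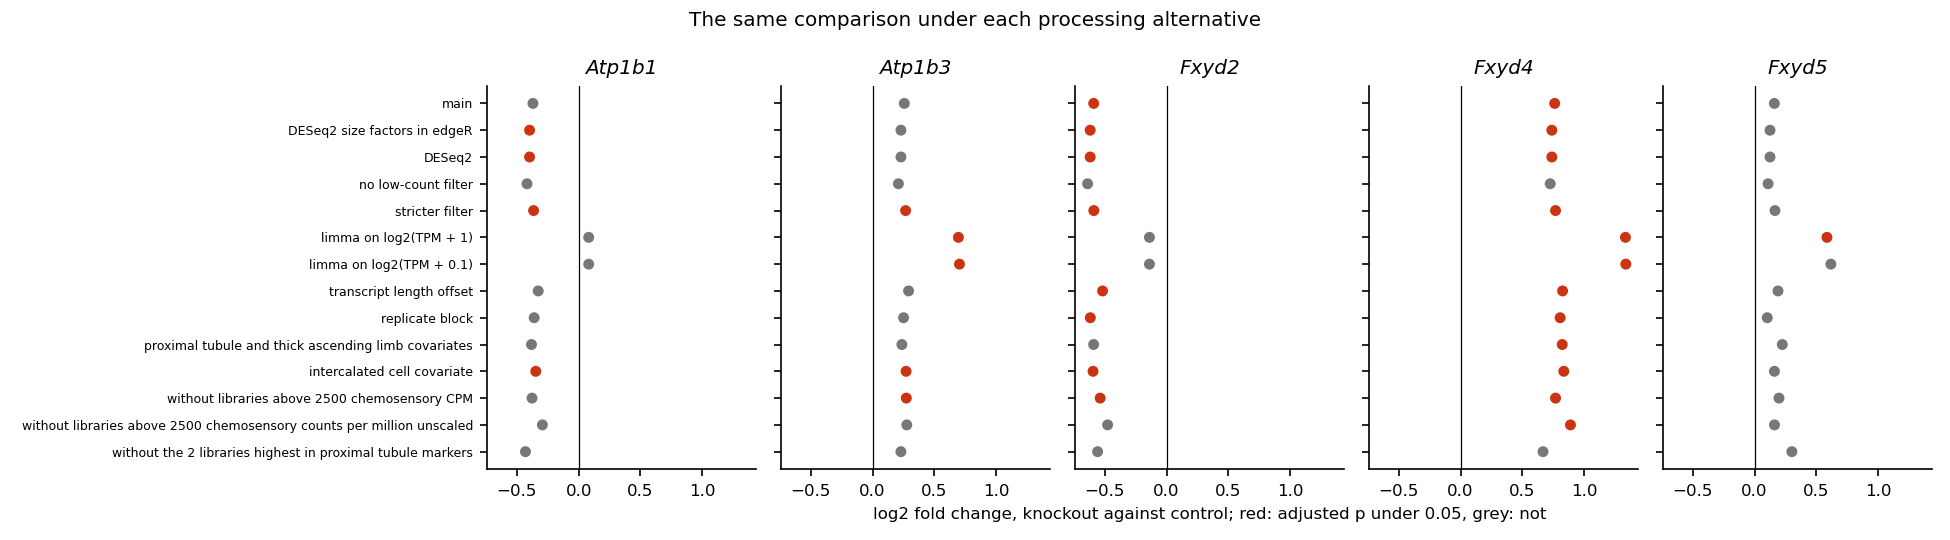
Log2 fold change of each gene in knockout against control under the main setting and 13 alternatives, red where the adjusted p was under 0.05 and grey where it was not. Atp1b1 crosses 0 on TPM, Fxyd2 shrinks to -0.14 on TPM, and Fxyd4 stays at or above 0.67.

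Other genes of the pump and of related pumps were taken from a list of 21, of which 19 passed the count filter and Fxyd7 and Nkain1 did not. In knockout against control 3 of the 19 were called higher and none lower, where 10.5% of all tested genes were called, and the list's median change was 0.06 against 0.09 over all genes. Atp12a, the catalytic subunit of the colonic proton-potassium pump, which can take a beta subunit of the sodium pump as partner, rose by 3.57 (SE 0.31, adjusted p 8.47e-08). Its highest control library had 10.4 CPM and its lowest knockout library 16.4 CPM. The share of all tested genes that separate the genotypes in this way is not given here. Atp1b2, a beta subunit best known from brain, rose by 0.90 (SE 0.21, adjusted p 0.00623) from a low level of 1.74 TPM on average. Sik1, a kinase that acts on the pump in response to sodium, rose by 0.80 (SE 0.22, adjusted p 0.0194).

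The same list had 2 genes called in KO-NK against CT-HK, Atp12a and Sik1, and 3 in KO-LK against CT-HK, Atp12a, Sik1 and Atp1b2, each of them higher, where 5.78% and 5.49% of all tested genes were called. Against CT-NK only Atp12a was called, at 2.68 (adjusted p 0.00152) in KO-NK and 2.58 (adjusted p 0.00165) in KO-LK. No listed gene was called in either diet comparison. Atp4a, the catalytic subunit of the gastric proton-potassium pump, averaged 111 TPM, and its own beta subunit Atp4b averaged 0.373 TPM and was at 0 in 5 libraries.

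The other beta and FXYD genes lay far below the 5 described here. Atp1b4 averaged 0.0488 TPM, Fxyd1 2.16, Fxyd3 0.343, Fxyd6 2.13 and Fxyd7 0.158 TPM. Genes of the membrane skeleton that holds the pump in place were intermediate, with 46.8 TPM for Sptan1, 30.3 for Add1, 27.7 for Sptbn1 and 20.5 for Ank3. None of these 4 was called in any of the 7 comparisons.

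Across the 23 libraries the CPM profiles of the 5 genes were only partly alike. The Pearson correlation of log2(CPM + 1) was 0.67 between Atp1b3 and Fxyd4, 0.57 between Atp1b1 and Fxyd2, 0.24 between Atp1b1 and Atp1b3 and -0.45 between Fxyd2 and Fxyd4. After group means were taken out, Atp1b1 and Atp1b3 correlated at 0.77 and Fxyd2 and Fxyd4 at 0.04. These are descriptions over libraries that share groups, depth and scaling.

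The genes whose profile over the 23 libraries was most like each of the 5 differed from gene to gene. For Atp1b1 they were Mettl9 (r = 0.957), Pld3 (0.939) and Vdac2 (0.936), and for Atp1b3 they were Lcmt1 (0.893), Tspan14 (0.892) and Cfdp1 (0.888). For Fxyd2 they were Il11ra1 (0.902), Scn4b (0.900) and Ndufaf1 (0.892). For Fxyd4 they were Apela (0.878), which encodes a small peptide hormone, Elovl6 (0.874), a fatty acid elongase, and Mcoln3 (0.867), a lysosomal cation channel. For Fxyd5 they were Coro1a (0.894), Cybb (0.862) and Plbd1 (0.857), of which Coro1a and Cybb are best known from leukocytes. No correlation among them was tested.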

How the data were processed

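Deposited values were Salmon expected counts and TPM per Ensembl gene, per the submitters' processing notes against GRCm38.p6. The authors' TPM and expected counts came from SMART-Seq HT and Nextera XT libraries, per the labels' protocols. The Salmon settings are not given in the sources used here. Counts (35.9% not whole) were rounded, filtered with filterByExpr (25829 genes kept) and fitted with edgeR 4.0.16 (R 4.3.3, TMM, quasi-likelihood F test, 1 mean per group over 23 libraries, 19 residual degrees of freedom), with Benjamini-Hochberg adjustment over all genes tested at 0.05. Alternatives used DESeq2 1.42.0, limma 3.58.1 on log2(TPM + 1) and log2(TPM + 0.1), a transcript length offset, filters, covariates and left-out libraries. The fit was run on simulated counts with planted changes, whose spread was set lower than in these data. That run checked that planted changes came back in their direction and does not measure power here. Named genes were the 5 genes, listed pump genes called or above 10 TPM, and the 3 genes of at least 10 CPM most correlated with each. The members and lists were chosen with earlier results of these data known. 1 further gene of the pump list was left out whatever its values and is not reported here. Intervals on single libraries are not given.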

Additional observations from a re-analysis of the deposited data

Results flagged for a closer look

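Fxyd4 in CT-HK replicate 2 stood at 212.7 CPM, while the other 5 CT-HK libraries lay between 101 and 126 CPM. It was marked because its gap to the nearest library took most of the group's range under Dixon's criterion. Of 20 sets of values tested (5 genes in 4 groups), this was the 1 marked, and chance marks about 1 in 20. Without this library Fxyd4 was still called in both knockout groups against CT-HK.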

How the results depend on the processing

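Over 945 alternatives for 35 log2 changes (5 genes in 7 comparisons), 884 kept direction and side of the threshold, 10 lost a call, 51 gained one and no called value changed sign, while 56 values that were not called did. The causes were not tested. Fxyd5 had the lowest counts of the 5, with 3.61 CPM in its lowest library. With no count filter the knockout change lost its call for Fxyd2 (-0.64) and Fxyd4 (0.73). It did so for Fxyd2 with proximal tubule and thick ascending limb covariates (-0.59), on both TPM fits (-0.14) and without the 8 libraries above 2500 chemosensory CPM without TMM scaling (-0.48, chosen after seeing the data), and for Fxyd2 (-0.56) and Fxyd4 (0.67) without the 2 libraries richest in proximal tubule markers.

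Calls were gained in knockout against control for Atp1b1 with DESeq2 size factors (-0.40), DESeq2 (-0.40), a stricter filter (-0.36) and an intercalated cell covariate (-0.35). For Atp1b3 they were gained with the stricter filter (0.27), that covariate (0.27), without libraries above 2500 chemosensory CPM (0.27) and on log2(TPM + 1) (0.69) and log2(TPM + 0.1) (0.70). For Fxyd5 the call was gained on log2(TPM + 1) (0.59).

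In KO-NK against CT-HK, Fxyd2 was called with DESeq2 size factors (-0.79), DESeq2 (-0.79), the stricter filter (-0.70), only the groups compared (-0.69), the replicate block (-0.82), the intercalated cell covariate (-0.75) and without chemosensory-rich libraries by scaled (-0.71) or unscaled (-0.71) counts. Atp1b1 was called with DESeq2 (-0.45), the stricter filter (-0.35) and that covariate (-0.40), and Atp1b3 with the stricter filter (0.28) and on TPM (0.75 and 0.76).

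In KO-LK against CT-HK, Atp1b1 was called with DESeq2 (-0.50), the stricter filter (-0.42) and the covariate (-0.45), Fxyd2 in the same settings (-0.73, -0.65 and -0.69), Atp1b3 with the stricter filter (0.36), only the groups compared (0.43) and TPM (0.86 and 0.87), and Fxyd5 on TPM (0.97 and 1.02). Against CT-NK, Atp1b1 was called with the stricter filter in KO-NK (-0.30) and KO-LK (-0.37), Atp1b3 on TPM in KO-NK (0.53 and 0.54) and KO-LK (0.64 and 0.65), and Fxyd4 on TPM in KO-LK (0.96 and 0.96).

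Leaving out 1 library at a time gave -0.63 to -0.49 for Fxyd2, -0.40 to -0.28 for Atp1b1 and 0.22 to 0.36 for Atp1b3 in knockout against control, and -0.82 to -0.60 for Fxyd2 and 0.15 to 0.40 for Atp1b3 in KO-NK against CT-HK. Atp1b1 gained the call without CT-HK replicate 4, KO-NK replicate 3 or KO-LK replicate 4, Atp1b3 without KO-NK replicate 3 in both comparisons, and Fxyd2 in KO-NK against CT-HK without CT-HK replicate 4 or KO-NK replicate 5. Same-numbered libraries deviated together with r over 0.1 in 3 of 5 control pairs, 5 of 6 knockout pairs and 3 of 22 pairs across genotypes. Their median r was 0.30, 0.35 and -0.22. Differently numbered libraries did so in 12 of 25, 12 of 30 and 49 of 110 pairs, with medians of 0.04, -0.05 and 0.04. Median r of same-numbered pairs was thus higher within each genotype and lower across genotypes. Of 23 libraries, 4 correlated best with their own number. The labels do not say what a number shares, and its part was not tested. The replicate block changed no other call.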
